A study of Sus scrofa with 85 samples.

Results

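The 100 genes described here were chosen by their level in micro-endomyocardial biopsies (micro-EMB) of the infarcted, apical region of the swine left ventricle. Their group means at 1–3 hours, 2 days and 14 days after the start of a coronary occlusion all lay above the group mean at baseline. The level of a gene in a library is log2(CPM+1), where CPM is the count scaled to a total of 1000000 counts in that library. Genes were ranked by the smallest of the 3 differences from baseline, and the 100 with the largest values were taken. Each of the 3 means also had to be at least 3 and within 1.5 of the others, and the mean in blood less than 3 above baseline. Of 31907 genes in the count table, 8470 met every limit, and these candidates serve as the background. One identifier was dropped by the rule before ranking, and with a ranking value of 0.22 it would not have been among the 100. Since these libraries chose the genes, their differences from baseline at those 3 times are given as a description, and no test of them is read as support.

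The biopsies came from 3 female farm pigs of mixed Yorkshire and Swedish breed, with the numbers 1640, 1644 and 5385. A balloon closed the distal left anterior descending artery for 1 hour and was then deflated. All animals were sedated, anaesthetised and given fentanyl at each session, received the antiarrhythmic drug amiodarone at the first one and analgesics after it, and there was no sham-operated animal. Baseline samples, taken before the balloon and labelled apical, were per the methods not aimed at any region. Apical samples were taken at 0–1 hours (during the occlusion), at 1–3 hours and after 2 and 14 days. Lateral samples, aimed at the non-infarcted region, were taken at the same times, and blood at baseline, 1–3 hours, 2 days and 14 days.

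Of 85 libraries, 57 were usable, which meant a total of at least 1000000 counts with 7–60% of them on the 10 most counted genes. The totals of the usable libraries ran from 3499443 to 16659110 counts. Usable libraries numbered 4 at baseline, 5, 9, 4 and 7 in the apical groups in order of time, 3, 3, 4 and 6 in the lateral groups, and 1, 2, 4 and 5 in blood. Several libraries of a group came from the same animal, so p-values measure the spread between samples of 3 animals. A low share of the 10 most counted genes left out 25 libraries, here called even-profile libraries, and a high share left out 2. Of 6 micro-EMB libraries rich in collagen transcripts, 1 was a baseline library, from swine 1644. In this baseline library the summed level of the 10 cardiomyocyte markers found was 7.84, against a median of 14.43 over the 4, and the summed level of the 10 fibroblast and collagen markers found was 15.34, against a median of 12.55.

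After an infarct, dying heart muscle is replaced by a scar that fibroblasts build from collagens and other matrix proteins. Growth factors of the TGF-beta family drive matrix production, and proteases of the plasminogen system and their inhibitors govern how clots and matrix are broken down. Strained cardiomyocytes release natriuretic peptides and switch on genes of the contractile and stretch-sensing apparatus. The 100 genes held members of each of these groups, together with genes best known from synapses and neurons.

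The gene with the highest rank was SERPINE2, an inhibitor of thrombin and plasminogen activators, whose smallest difference from baseline was 1.69. Among the genes with a known role in matrix and proteolysis, PLAT, the tissue-type plasminogen activator, had 1.56, TGFB3, a ligand of the TGF-beta family, 1.45, and COL12A1, a collagen of fibril surfaces, 1.28. Also among the first 20 with a symbol were CEMIP, a hyaluronan-degrading protein (1.22), TCF21, a transcription factor of cardiac fibroblasts (1.02), LTBP2, a microfibril-associated protein (1.01), AEBP1, a collagen-binding protein (0.97), and MSR1, a scavenger receptor of macrophages (0.95). The others of the first 20 were GRIP1, SORCS2, NRXN3, DAB1, SORCS1, FSTL5 and NKAIN2, which are best known from the nervous system, and GLIS1, PTK7, SPSB1 and ADGRG6. At the edge of the list, FBN2 (0.63), ADGRB3 (0.62) and ENSSSCG00000003825 (0.62) were just inside, and SHANK2 (0.62), SRRM4 (0.62) and ALDH18A1 (0.62) just outside. These ranking values were nearly the same, so the edge of the list is not a boundary in the data.

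Of the 45 matrix genes in a fixed list, 25 were candidates and 3 were members, namely COL12A1, COL8A1 and LTBP2. Of 16 genes of heart muscle stress, 9 were candidates and 4 were members (NPPB, CSRP3, ACTA1 and XIRP2). EGLN3, an oxygen-sensing prolyl hydroxylase, was the single member from 13 hypoxia and glycolysis genes. Of 9 candidates among the cardiomyocyte markers, TNNC1 and MYL2 were members. TCF21 was the single member from 6 fibroblast and collagen candidates, and MSR1 that from 9 macrophage and monocyte candidates. The 8 smooth muscle and pericyte, 6 endothelial, 2 endocardial, 1 adipocyte and 1 Schwann cell and neuron candidates held no member. The other marker lists had no candidate. No member came from the 53 candidates among ribosomal protein genes, the 56 among oxidative phosphorylation genes, the 13 among interferon response genes or the 12 among heat shock genes. The lists of clock and oxidative stress genes had 6 candidates each, those of immediate early, glucocorticoid, complement and MHC genes 5 each, cell cycle genes 4 and cytokines 1, also with no member. No small noncoding RNA was a candidate, so none could be a member.

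A feature that the rule did not use was the length of the genes. An annotated span, the distance from the first to the last base of the gene in the RefSeq annotation of Sscrofa11.1, was found for 86 members, all of them protein coding, and for 7256 candidates. The median span was 189 kb among members and 46.5 kb among candidates. A span over 250 kb was found for 40 of the 86 members (46.5%) and for 9.28% of the candidates, and over 500 kb for 24 members (27.9%) and 2.91% of the candidates. The split at 250 kb was made after the values had been seen. The longest members included NRXN3, a presynaptic adhesion protein, with 1647 kb on chromosome 7, DAB1, an adaptor of reelin signalling, with 1218 kb, and CTNNA2, the neuronal alpha-catenin, with 1213 kb. CTNNA2 was chosen for naming after its values were seen. The 40 members over 250 kb are called the long members, the 46 others with a span the short members, and 14 members had no span. How many long members stayed in the list depended on the libraries and the setting. Without a single baseline library 6 long and 29 short members stayed, and with group medians 29 and 20. The spans of the genes that took their places are not given here.

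**Figure D1:**
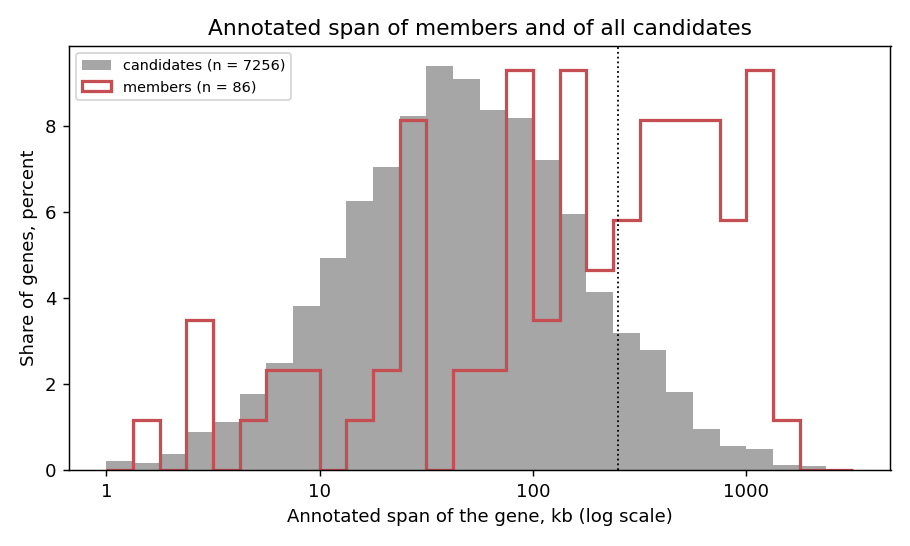
Share of genes (percent, vertical axis) by annotated span in kb (horizontal log axis) for 86 members (red line) and 7256 candidates (grey). The dotted line marks 250 kb, to the right of which lie 46.5% of the members and 9.28% of the candidates.

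The 250 bases before the annotated start of 3 members are shown to give the start of short and long members. PLAT and CEMIP are the highest-ranked members that hold TATAAA there, and NRXN3 is the longest member. Capitals mark the letters TATAAA, found on either strand, and the windows end at the base before the annotated gene start in Sscrofa11.1, which was not measured here. PLAT lies on the minus strand at chr17:11223822-11224071, CEMIP on the plus strand at chr7:49622284-49622533 and NRXN3 on the plus strand at chr7:101132530-101132779.
PLAT: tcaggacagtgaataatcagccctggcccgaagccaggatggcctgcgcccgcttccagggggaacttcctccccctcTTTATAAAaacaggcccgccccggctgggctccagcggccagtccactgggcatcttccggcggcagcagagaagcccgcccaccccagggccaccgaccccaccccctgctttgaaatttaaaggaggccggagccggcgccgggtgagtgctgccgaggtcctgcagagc
CEMIP: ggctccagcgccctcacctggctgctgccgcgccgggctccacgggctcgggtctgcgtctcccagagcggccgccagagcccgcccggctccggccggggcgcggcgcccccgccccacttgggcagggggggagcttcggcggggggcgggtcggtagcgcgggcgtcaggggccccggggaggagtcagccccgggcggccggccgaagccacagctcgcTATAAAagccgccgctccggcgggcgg
NRXN3: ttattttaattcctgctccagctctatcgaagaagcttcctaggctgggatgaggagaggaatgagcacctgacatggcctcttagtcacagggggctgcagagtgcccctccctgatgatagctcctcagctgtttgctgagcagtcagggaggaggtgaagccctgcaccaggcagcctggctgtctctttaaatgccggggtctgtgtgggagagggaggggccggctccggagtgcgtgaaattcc
The capitals of PLAT are matches on both strands that overlap. TATAAA was present in 9.30% of the 86 member windows and in 9.76% of the 19531 windows of all protein-coding genes with a complete window. The motif TGANTCA, to which AP-1 factors bind, was present in 4.65% of member windows and in 5.25% of all windows, and the CArG box of serum response factor in 1.16% and 1.31%. The members' shares were near those of all genes for all 3 motifs. Median GC content was 65.8% in member windows and 57.6% in all windows. All windows include genes that did not meet the limits of the rule, and the part of this in the difference was not tested.

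The mean level over the 100 genes was 3.80 ± 1.14 (SD, n = 4) at baseline. It was 4.91 ± 0.87 (n = 5) at 0–1 hours, 5.0 ± 1.02 (n = 9) at 1–3 hours, 4.84 ± 0.61 (n = 4) after 2 days and 4.91 ± 0.88 (n = 7) after 14 days in the apical region. The baseline libraries had means of 2.79 and 3.32 in swine 5385, 3.65 in swine 1644 and 5.43 in swine 1640. The baseline library of swine 1640 thus lay above the group mean of every later apical group, and the groups overlapped. Not one of the 100 genes had all apical libraries of 1–3 hours, 2 days and 14 days above all 4 baseline libraries, and 0.0118% of the candidates did. At single times 0 members at 0–1 hours (background 0.106%), 4 at 1–3 hours (0.638%), 4 after 2 days (0.767%) and 0 after 14 days (0.0236%) did so, counts that the rule itself favours. They were ENSSSCG00000006053, ENSSSCG00000042504, SPSB1 and FSTL3, an inhibitor of activins, at 1–3 hours, and ENSSSCG00000006053, MSR1, COL8A1 and GLIS3 after 2 days, of which FSTL3, GLIS3 and the genes without a symbol were named after their values were seen. A lasting rise thus describes the group means and not the single biopsies.

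**Figure D2:**
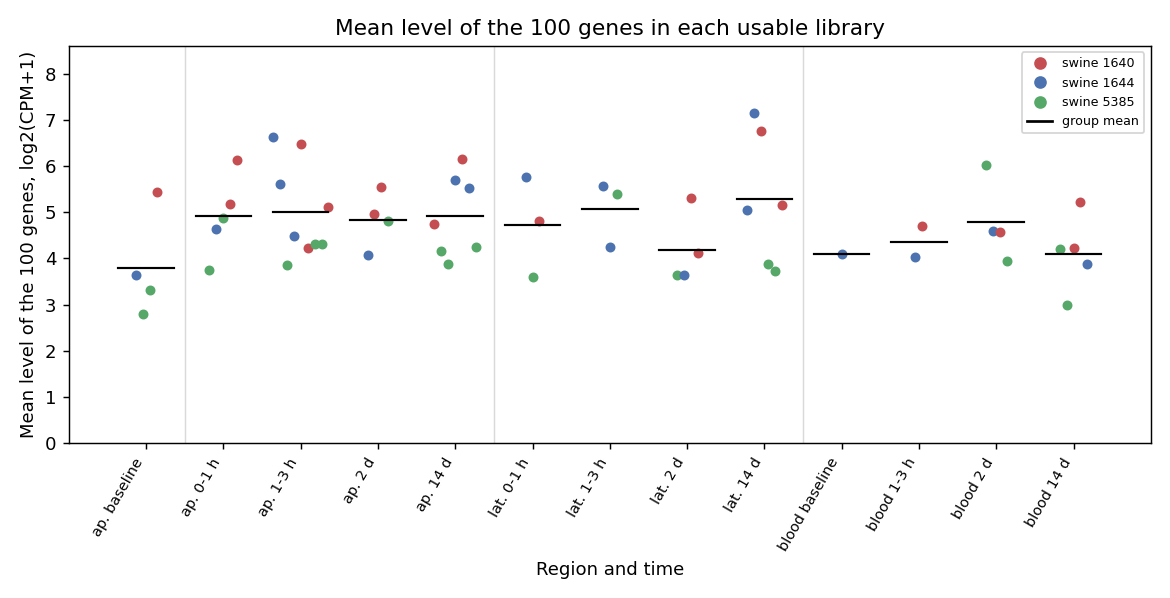
Mean level of the 100 genes in log2(CPM+1) (vertical axis) in each of the 57 usable libraries, by region (ap., apical, lat., lateral) and time (horizontal axis), with points coloured by swine and lines at group means. The baseline points lie between 2.79 and 5.43, and the highest of them, from swine 1640, lies within the range of each later apical group.

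Within animals the differences were uneven. After 2 days, swine 5385 and 1644 each had 1 usable apical library, and that of swine 5385 was collagen-rich. In swine 5385, 93 of the 100 genes were above its baseline mean at 1–3 hours, 86 after 2 days and 100 after 14 days, against 43.1%, 44.4% and 72.2% of the candidates. In swine 1644, compared with its collagen-rich baseline library, 97, 38 and 96 were above, against 31.0%, 23.4% and 23.1%. In swine 1640, 39, 47 and 56 were above, against 26.8%, 48.9% and 43.7%, with a change in the mean level of -0.16, -0.18 and 0.02. The long members of swine 1640 had a mean level of 5.54 at baseline and of 5.04, 4.71 and 5.45 at the 3 times. The short members of this animal had 5.63 at baseline and 5.72, 5.98 and 5.73 later. The mean over the list was above baseline at all 3 times in swine 5385 and 1644, by 1.10, 1.75 and 1.04 and by 1.93, 0.42 and 1.96, and not in swine 1640. In swine 1644 after 2 days the median difference of the members was -0.56, so the mean and the median had opposite signs.

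Among 12 members that encode matrix proteins, proteases, their regulators or secreted factors, the median difference from baseline was 1.53 at 1–3 hours, 1.63 after 2 days and 1.29 after 14 days in the apical region. This grouping was made after the members were known. The baseline levels of SERPINE2 were 3.08, 4.03, 5.19 and 5.64. They ran from 4.87 to 10.32 with a median of 5.93 at 1–3 hours, were 6.62, 7.12, 7.24 and 5.22 after 2 days, and ran from 5.21 to 7.84 with a median of 6.03 after 14 days. One library of 1–3 hours, from swine 1644, stood far above the other 8, and the lowest libraries of each later group were below the highest at baseline. PLAT was at 5.33, 2.91, 4.08 and 4.48 at baseline, between 4.68 and 9.5 at 1–3 hours, at 7.57, 7.12, 5.24 and 5.99 after 2 days and between 4.62 and 8.0 after 14 days. The single baseline library of swine 1644 overlapped all 3 later groups of PLAT.

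TGFB3 had baseline levels of 3.48, 1.59, 3.38 and 4.86 and ran from 3.99 to 7.50 at 1–3 hours, from 4.46 to 5.27 after 2 days and from 3.91 to 7.20 after 14 days. COL12A1 was highest at baseline in the collagen-rich library (7.56, against 3.99, 5.55 and 5.94), and ran from 6.79 to 10.50 at 1–3 hours, from 6.46 to 8.35 after 2 days and from 5.97 to 10.12 after 14 days. Its levels of 10.50 and 10.12 were those of collagen-rich libraries. COL8A1, a short-chain collagen, had 4.98, 5.03, 6.25 and 6.56 at baseline and 7.33, 8.31, 8.53 and 7.52 after 2 days, so that these 2 groups did not overlap. For MSR1 the baseline levels of 2.30 to 3.02 likewise lay below the levels of 3.37 to 4.98 after 2 days. TCF21 was not counted in the collagen-rich baseline library (level 0), and had 2.91, 2.41 and 3.67 in the others and 3.52 to 4.23 after 2 days. In bulk tissue, more cells of a type and more RNA per cell cannot be told apart. The summed level of the fibroblast and collagen markers had a median of 12.55 at baseline, 11.83 at 1–3 hours, 14.24 after 2 days and 12.83 after 14 days, and its part in the matrix genes was not tested.

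**Figure D3:**
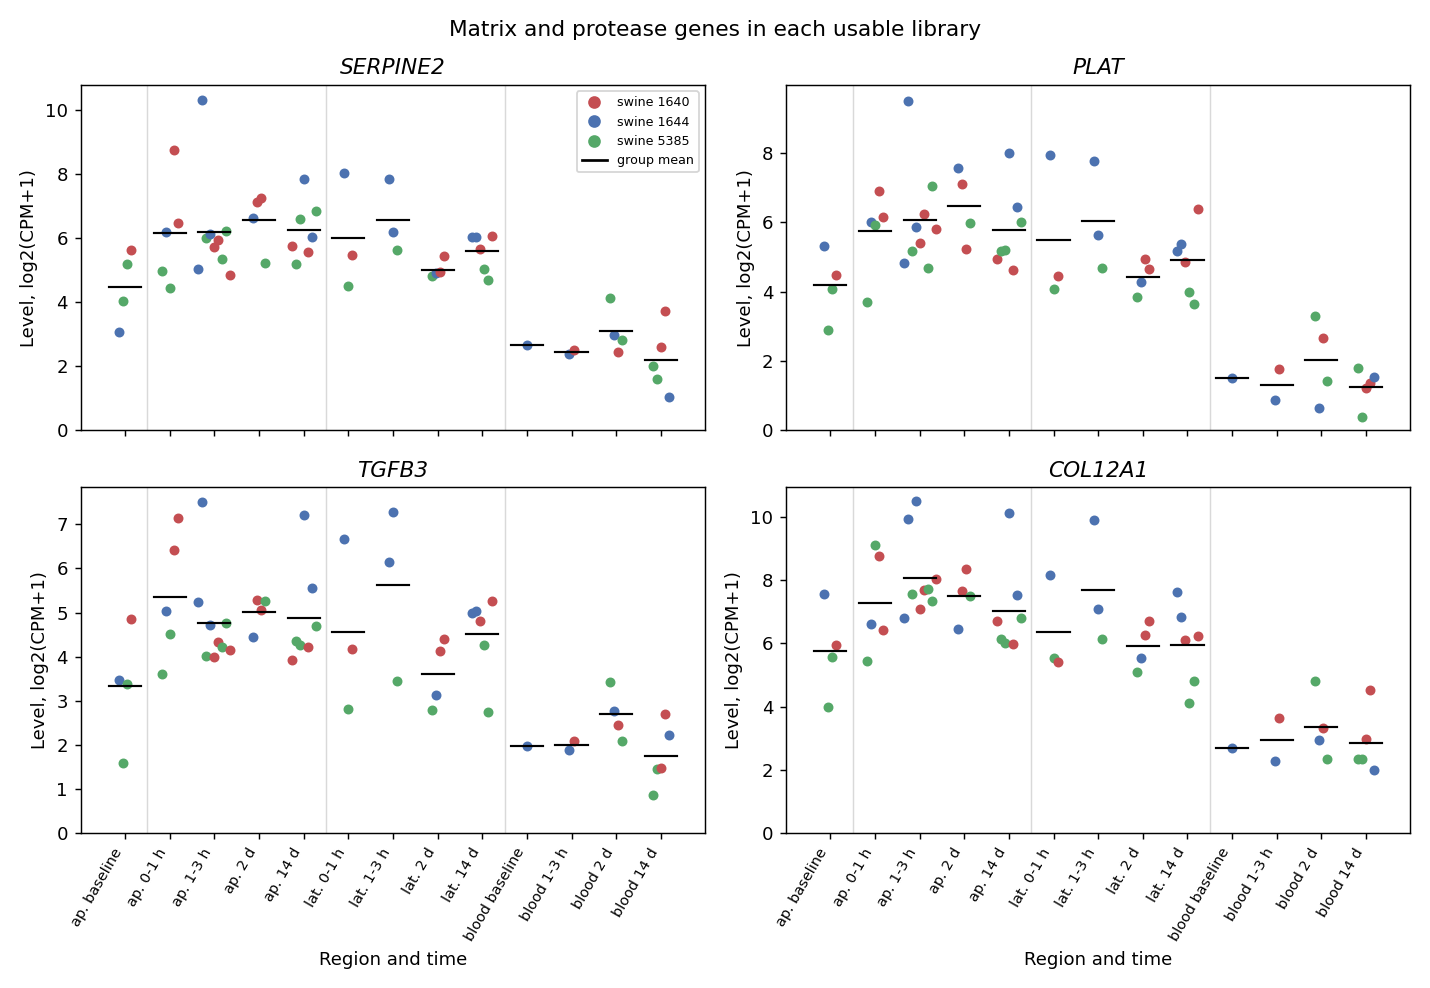
Levels of SERPINE2, PLAT, TGFB3 and COL12A1 in log2(CPM+1) (vertical axes) in each usable library, by region and time (horizontal axes), with points coloured by swine and lines at group means. Later apical libraries sit higher on average than the 4 baseline libraries but overlap them, and the levels in blood are lower, such as 1.04 to 4.14 for SERPINE2.

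For the muscle genes the baseline mean was set by 1 library. ACTA1, the skeletal alpha-actin that the heart shares, had 2.70 in the collagen-rich baseline library and 12.37, 12.35 and 11.62 in the others. At 1–3 hours it ran from 2.52 to 12.56 with a median of 11.60, and after 14 days from 3.93 to 12.81 with a median of 12.07, the lowest value being a collagen-rich library each time. MYL2, the ventricular myosin light chain, had 1.75 against 11.19, 11.45 and 10.79 at baseline. TNNC1, the calcium-binding troponin subunit, had 0.76 against 9.98, 10.33 and 9.70. DES, the intermediate filament of muscle, which the naming rule did not cover, had 2.27 against 10.45, 10.52 and 9.62. CSRP3, a protein of the Z-disc, and XIRP2, an actin-binding protein of the intercalated disc, showed the same split, with 0.84 and 2.36 in the collagen-rich library and at least 8.48 and 7.66 in the others. Without this library the ranking value was at or below 0 for 11 members, among them all 6 of these genes, NPPB and EGLN3.

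NPPB, the precursor of B-type natriuretic peptide, was spread widely within each group. Its baseline levels were 0.37 in swine 1644, 0.88 and 1.76 in swine 5385 and 8.96 in swine 1640. It ran from 0.52 to 6.16 at 1–3 hours, from 0.83 to 7.04 after 2 days and from 2.07 to 7.92 after 14 days. The highest of the later levels was below the baseline level of swine 1640.

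**Figure D4:**
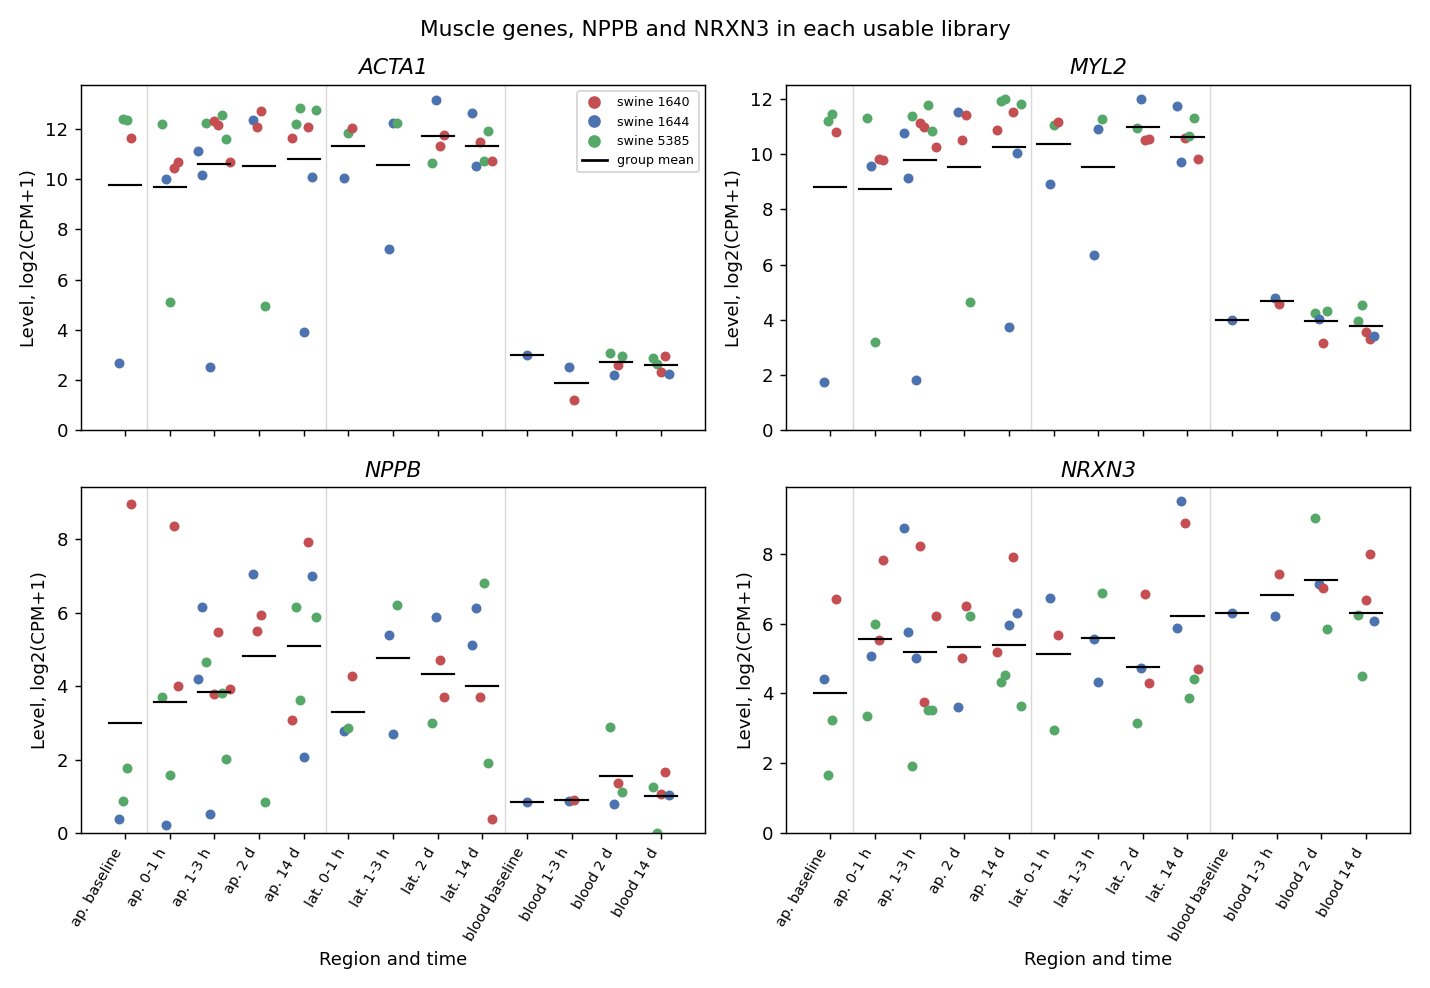
Levels of ACTA1, MYL2, NPPB and NRXN3 in log2(CPM+1) (vertical axes) in each usable library, by region and time (horizontal axes), with points coloured by swine and lines at group means. ACTA1 and MYL2 are low in 1 baseline library (2.70 and 1.75) and high in the other 3, and NPPB is high in the baseline library of swine 1640 (8.96).

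Of 25 members known mainly from synapses and neurons, a grouping made after the members were known, 24 were long. The mean level of the 25 was 3.32 ± 1.76 (SD, n = 4) at baseline, 4.40 ± 1.81 (n = 9) at 1–3 hours, 4.27 ± 1.06 (n = 4) after 2 days and 4.42 ± 1.46 (n = 7) after 14 days in the apical region, and the groups overlapped. The summed level of the 5 Schwann cell and neuron markers found was 5.66 to 8.28 at baseline, 7.93 to 9.91 at 1–3 hours, 6.64 to 8.58 after 2 days and 8.23 to 9.05 after 14 days, and its part in these levels was not tested. NRXN3 had 4.42, 1.66, 3.22 and 6.70 at baseline, ran from 1.91 to 8.74 with a median of 5.0 at 1–3 hours, had 3.60, 5.02, 6.52 and 6.23 after 2 days and ran from 3.63 to 7.89 with a median of 5.17 after 14 days. The baseline library of swine 1640 was the highest of the 4 for 39 of the 40 long members, and the libraries of swine 5385 were the lowest for 29 and for 9 of them. Over the 45 usable micro-EMB libraries, 29 of the 40 long members had their highest level in a single library, of the lateral region of swine 1644 after 14 days. Of 46 short members, 10 had it there.

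The mean level of the long members moved with the number of genes that reached a CPM of 1 in a library. The 4 baseline libraries had 13316, 13751, 14991 and 16557 such genes and long-member means of 1.91, 2.52, 3.83 and 5.54. The lateral library with 22076 genes had a mean of 7.96. In the 25 even-profile libraries, which had 21534 to 23088 genes, the mean was 8.48 to 8.86 in micro-EMB and 7.85 to 8.81 in blood. The even-profile baseline library, from swine 1640, was at 8.75 and thus above all 57 usable libraries. All 40 long members had a higher median in even-profile than in usable micro-EMB, by 4.54 in the median, against 31 of 46 short members and 50.5% of the candidates. ACTA1 and AEBP1 had lower medians there, with 8.99 against 11.63 and 3.82 against 6.29. The part of the number of genes in the long members' levels was not tested.

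**Figure D5:**
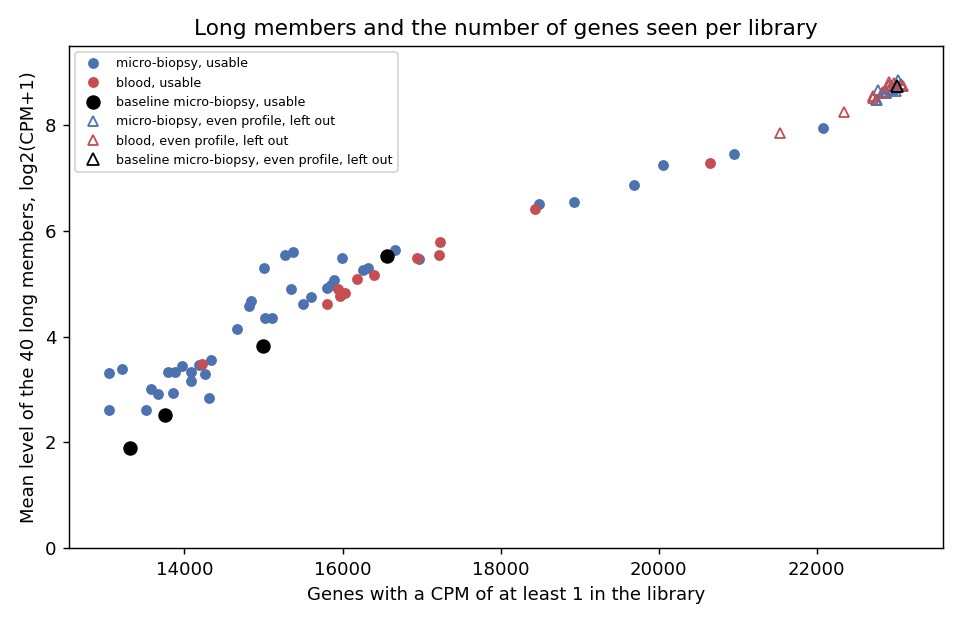
Mean level of the 40 long members in log2(CPM+1) (vertical axis) against the number of genes with a CPM of at least 1 (horizontal axis) in each library. Usable libraries are filled, even-profile libraries are open triangles, and baseline micro-EMB are black. The means climb from 1.91 at 13316 genes to 7.96 at 22076 genes among usable micro-EMB, and the even-profile libraries lie at the upper end.

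At 0–1 hours, which the rule did not use, 97 of the 100 apical means were above baseline, with a median difference of 1.21, against -0.06 over the candidates. This contrast shares the baseline libraries with the rule and was not read as a test. In a fit of all usable micro-EMB libraries with edgeR, 323 of 18097 genes tested were higher at 1–3 hours than at baseline (1.78%; 3.52% in both directions) at a Benjamini-Hochberg adjusted p of 0.05 or less, and 9 of them were members. They were MSR1, SPSB1, GLIS3, SPIDR, ADAMTS17, RAI14, IL1RAP and 2 genes without a symbol, of which those outside the first 20 were named after their values were seen. At the other apical and all lateral times no gene was called against baseline (0%). An unadjusted p under 0.05 in the same edgeR fit was found for 3.64% of the genes at 0–1 hours, 18.8% at 1–3 hours, 3.3% after 2 days and 2.97% after 14 days in the apical region and for 2.56%, 5.72%, 1.48% and 9.24% in the lateral region in order of time. Nothing is read from these counts, since the rule used the same libraries. Of 39 matrix genes of the fixed list that were tested, CCN2 and THBS1, which are no members, were higher at 1–3 hours and none was lower. None of 13 tested genes of heart muscle stress was called.

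The lateral libraries ask how the 100 genes behaved in samples aimed outside the infarct. In the paper, 2 non-infarcted samples of 1 animal clustered with the infarcted samples of 1–3 hours. Its authors hold inaccurate sampling, in or near the infarcted area, to be the most likely reason. The labels do not mark which libraries these were. The median difference from baseline was 0.91 at 0–1 hours, 1.24 at 1–3 hours, 0.24 after 2 days and 1.55 after 14 days. The counts above baseline were 100, 100, 71 and 100 of 100, against 33.2%, 55.3%, 36.3% and 53.2% of the candidates. The baseline libraries were again those that chose the members, so that a low baseline alone raises these counts. All lateral libraries of a time lay above all 4 baseline libraries for 1 member at 0–1 hours (0.307% of the candidates), for 7 at 1–3 hours (1.07%), for 2 after 2 days (0.838%) and for 0 after 14 days (0.142%). The 2 genes after 2 days were EGLN3 and ENSSSCG00000042504, and the latter was also the gene at 0–1 hours. The long members had a median difference of -0.00 after 2 days and 2.02 after 14 days, and the short members of 0.55 and 1.04. The 12 matrix and secreted members had 0.35 after 2 days and 0.71 after 14 days. The lateral 14 days libraries included 2 with 22076 and 20949 genes at a CPM of 1, and the tests without them follow.

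Between the regions after 14 days, the group means of TCF21, AEBP1 and NPPB were lower in lateral than in apical samples by the largest margins. TCF21 had 2.95 ± 1.10 (SD, n = 6) against 4.16 ± 1.35 (n = 7), AEBP1 5.98 ± 1.01 against 7.12 ± 2.04, and NPPB 4.01 ± 2.50 against 5.10 ± 2.19. RBFOX3, a neuronal splicing factor, had 5.40 ± 2.15 against 3.76 ± 1.53, PLD5 4.75 ± 1.94 against 3.17 ± 1.41, and PTPRN2, a vesicle membrane protein of neuroendocrine cells, 5.55 ± 2.46 against 4.11 ± 1.74. These 6 genes were picked as the extremes of the list, and in each of them the difference was smaller than the SD of at least 1 of the 2 groups.

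Contrasts that did not use the baseline were tested across all genes with edgeR's quasi-likelihood test, and all 100 members passed the filter on low counts in each. In lateral samples of 1–3 hours, 2 days and 14 days against 0–1 hours, no gene of 18185 was called (0%), and so no member, while DESeq2 called 0, 9 and 39 genes and no member. At an unadjusted p under 0.05, 2 members were higher at 1–3 hours (background 2% in both directions), 6 were lower after 2 days (2.39%) and 4 were lower after 14 days (4.25%). They were CYP7B1, a sterol hydroxylase, and ENSSSCG00000033537 at 1–3 hours, SPSB1, PLAT, SERPINE2, PRRX2 and 2 genes without a symbol after 2 days, and SPSB1, PLAT, SERPINE2 and ENSSSCG00000042504 after 14 days, of which CYP7B1, PRRX2 and the genes without a symbol were named after their values were seen. The median log2 fold change of the members was 0.10 at 1–3 hours, -0.74 after 2 days and 0.85 after 14 days, against 0.06, -0.05 and 0.10 over all genes. These counts turned on single libraries. Without the 0–1 hours library of swine 1644 they were 20, 0 and 0, without 1 library of 1–3 hours, the collagen-rich one, 0 were higher at that time, and without 1 library of 2 days, from swine 1640, 25 were lower after 2 days. After 14 days the long members had a median of 1.17 and the short members of -0.19. Without the usable libraries in which 18000 or more genes reached a CPM of 1, the median of the members after 14 days was -0.52, and 20 instead of 65 members had a positive value.

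SPSB1, a substrate adaptor of a ubiquitin ligase, had the smallest p of the members in 2 of these contrasts. Its lateral levels were 8.46, 4.49 and 5.66 at 0–1 hours, 4.41, 4.38, 5.21 and 5.24 after 2 days and 4.2 to 6.1 with a median of 4.99 after 14 days. Only the library of swine 1644 at 0–1 hours was above all later ones. The log2 fold change was -2.31 ± 0.69 (SE) after 2 days and -2.35 ± 0.61 after 14 days, with an edgeR adjusted p of 0.999 and 0.430. PLAT had 7.95, 4.09 and 4.44 at 0–1 hours, 3.85, 4.29, 4.95 and 4.66 after 2 days and 3.63 to 6.39 after 14 days, with log2 fold changes of -2.11 ± 0.81 and -1.79 ± 0.72. SERPINE2 had 8.04, 4.52 and 5.46 at 0–1 hours and log2 fold changes of -1.76 ± 0.68 and -1.47 ± 0.61. The same library of swine 1644 was the highest for all 3 genes. Without it SPSB1 had -0.32 after 2 days and -0.36 after 14 days, PLAT had 0.22 after 2 days and 0.54 after 14 days, and SERPINE2 -0.01 and 0.28.

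During the occlusion the apical and lateral regions were compared in samples the rule had not used. No gene of 18097 was called by edgeR or DESeq2 (0%), and 0 members had an unadjusted p under 0.05, against 0.956% of all genes. The median log2 fold change, apical over lateral, was 0.32 for the members and 0.04 for all genes, with 75 members positive. Without the libraries with 18000 or more genes at a CPM of 1 it was -0.15 for the members, with 35 positive. Without the apical library of swine 1640 with 18490 such genes it was -0.14, and without the lateral library of swine 5385 it was -0.05. NPPB had the smallest p among the members, with a log2 fold change of 3.04 ± 1.86 (SE) and an edgeR adjusted p of 1. Its apical levels were 3.70, 0.22, 1.58, 8.37 and 4.01 and its lateral levels 2.78, 2.86 and 4.28, so the groups overlapped. Without the apical library at 8.37, of swine 1640, the log2 fold change was -0.64.

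In blood the mean level of the long members was 5.28 ± 0.96 (SD) over the 12 usable libraries, against 4.49 ± 1.45 over the 45 usable micro-EMB libraries. For the short members it was 3.60 ± 0.56 in blood and 5.32 ± 0.71 in micro-EMB. The rule kept the blood mean of each member less than 3 above baseline, so it limited how high the levels in blood could be. NRXN3 ran from 4.49 to 9.02 in blood, AEBP1 from 0.34 to 1.97 and TNNC1, from the list of cardiomyocyte markers, from 0.29 to 1.79.

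After 2 days against 14 days in blood, no gene of 18956 was called by edgeR (0%), and DESeq2 called 1 gene and no member. At an unadjusted p under 0.05, 10 members were higher and 1 was lower, against 6.4% of all genes in both directions, and the median log2 fold change was 0.78 for the members and 0.08 for all genes. The 10 became 0 without the library of 2 days of swine 5385 with 20646 genes at a CPM of 1, 39 without another library of 2 days, of swine 5385, 64 without 1 library of 14 days, of swine 1640, and 2 or 3 without each of several others. CLU, the secreted chaperone clusterin, named after its values were seen, was the lower one. Its levels were 3.61, 4.87, 3.35 and 2.54 after 2 days and 2.00, 3.22, 6.74, 6.79 and 6.98 after 14 days, so the groups overlapped. The log2 fold change was -2.44 ± 0.77 (SE), with an edgeR adjusted p of 0.707. PTPRN2 had 1.14 ± 0.38 with the same adjusted p. Without the library of swine 5385 with 20646 genes at a CPM of 1, PTPRN2 had 0.60 and the members' median was 0.09.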

How the data were processed

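RNA from single micro-EMB and blood samples of 3 swine was sequenced, and the authors deposited read counts per gene, not normalized, for 85 libraries. According to the submitters' processing notes and the methods, STAR, featureCounts and Sscrofa11.1 were used. Versions of STAR and featureCounts are not given in the sources used here. Per the file headers, counting used the unstranded setting, although the library kit marks strand, so reads of antisense partners cannot be told apart. The authors left out samples that failed their quality control, samples contaminated with blood and collagen-rich samples. Here only the limits of the rule were used, so collagen-rich samples were kept and no filter on blood contamination was applied. Extraction batches are not in the labels and were not tested. The study's methods also name DESeq2. Levels were log2(CPM+1) on total counts, with a pseudocount of 1. Tests used edgeR 4.0.16 in R 4.3.3 (quasi-likelihood, TMM) with a Benjamini-Hochberg adjusted p threshold of 0.05. Genes had to reach a CPM of 1 in at least 20% of the libraries fitted. Separate fits held 20 lateral and baseline, 45 micro-EMB and 12 blood libraries. DESeq2 1.42.0 was an alternative. On simulated counts with 200 genes changed by 3 on the log2 scale and no animal effect, 52–74.5% were called, depending on the contrast. Smaller changes were not simulated. The members, lists and tests were chosen with earlier results of these data known. Named genes were the first 20 with a symbol, members in a fixed list, members called in a contrast the rule did not use, the genes at the edge of the list and the 3 with the largest and smallest lateral minus apical difference after 14 days, and others are marked. Libraries called collagen-rich scored above 25 on the second principal component of the 500 most variable genes, in log2 CPM with a prior count of 2. Libraries of the same animal deviated together from their group means, with a mean r of 0.122 over 293 pairs against -0.0482 over 591 pairs of different animals. No pair of replicates agreed within sampling noise (lowest chi-square per gene 9.993). Spans and promoters came from RefSeq (Sscrofa11.1), matched by symbol for 86 members. Usable libraries had a median of 7782629 counts, and the 1 library with too low a total had 11505. Alternatives left out each replicate or changed the scaling, filter, tool or libraries, and 1 was added after the data had been seen. No columns of the authors' own comparisons were used. Some items are not reported here.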

Additional observations from a re-analysis of the deposited data

Results flagged for a closer look

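With 11 measures, 99 combinations of a measure and a group of 4 to 10 libraries were checked. In 13 a library stood apart from the others of its group by Dixon's test, which chance gives in about 1 of 20. The combinations were not independent, since the measures were taken in the same libraries. SERPINE2 was at 10.3 and PLAT at 9.5 in the same 1–3 hours library of swine 1644, far above the other 8 libraries. COL12A1 was at 10.1 in an apical library of 14 days. NPPB was at 8.96 in the baseline library of swine 1640, far above the other 3. ACTA1 was low in 1 library each at baseline (2.70), 1–3 hours (2.52), 2 days (4.97) and 14 days (3.93). MYL2 was low in the same libraries (1.75, 1.84, 4.66 and 3.73) and in 1 of 0–1 hours (3.22). These low libraries, and the one high in COL12A1, were the collagen-rich ones. Outside the usable libraries, the long members had a mean level of 8.75 in the even-profile baseline library, higher than in any usable library.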

How the results depend on the processing

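Of the 100 genes, 53 were shared with the list from group medians, 52 with that from means of swine means, 45 without the collagen-rich libraries, 38 with all libraries of at least 1000000 counts and 54 without those with 18000 or more genes at a CPM of 1, a setting added after the data had been seen. TMM scaling kept 88 and a pseudocount of 0.5 kept 93. Leaving out 1 library kept 40 to 94, the fewest without one baseline library of swine 5385. The 40 long and 46 short members were kept unevenly. Without that library 6 long and 29 short members stayed, and without the other baseline library of this animal 11 and 30. Means of swine means kept 10 and 36. All libraries of at least 1000000 counts kept 8 and 24, and leaving out those with 18000 or more genes kept 13 and 35. Several settings went the other way, such as group medians with 29 and 20. With all libraries of at least 1000000 counts the members' median log2 fold change against lateral 0–1 hours was 1.46 at 1–3 hours and 0.93 after 2 days, and without the libraries with 18000 or more genes it was -0.52 after 14 days. DESeq2 called 9 genes after 2 days, 39 after 14 days and 1 in blood, none of them a member. Leaving out 1 library moved the median from -0.20 to 0.95 at 1–3 hours, from -1.46 to 0.14 after 2 days, from 0.46 to 1.44 after 14 days, from -0.14 to 1.08 between regions and from 0.09 to 1.2 in blood. The lateral medians above baseline ran from 0.30 to 1.51, 0.84 to 1.84, -0.17 to 0.79 and 1.2 to 2.19 in order of time. For single genes the leave-one-out values were -2.61 to 0.22 and -2.28 to 0.54 for PLAT, -1.95 to 0.28 for SERPINE2 after 14 days and -0.64 to 3.72 for NPPB, and the signs turned without the lateral 0–1 hours library of swine 1644 or, for NPPB, the apical 0–1 hours library at 8.37. With swine as a replicate block the medians were 0.79, -0.78, 0.70, 0.53 (between regions) and 0.92 (blood), and the pairing by animal changed no call. The cause of these shifts was not tested.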
